A study of Arabidopsis thaliana with 5 samples.

Results

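In sorted leaf epidermal cells of the hdl mutant of Arabidopsis thaliana, both VSP genes and 2 of 7 JAZ repressor genes rose relative to wild type (WT), while the transcript of MYC2, the transcription factor that JAZ proteins hold in check, did not pass the test. These calls stand beside 8.21% of all tested genes called higher, and without hdl replicate 1 none of the 10 genes was called. The 10 genes described here are the repressor genes JAZ1, JAZ2, JAZ3, JAZ5, JAZ6, JAZ9 and JAZ10, the transcription factor gene MYC2, and the output genes VSP1 and VSP2. They were picked by gene identifier from the 24200 genes of the deposited gene table. All 10 are in that table and passed the filter on low values.

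Jasmonates are lipid-derived hormones of wounding, defence and development. JAZ proteins bind MYC2 and related factors and, through the adaptor NINJA and the co-repressor TOPLESS, keep their target genes silent. When jasmonoyl-isoleucine is made, it joins JAZ proteins to the F-box protein COI1, the JAZ proteins are degraded, and the freed MYC factors switch on their targets. Most JAZ genes are themselves such targets, so their transcripts rise with signalling and rebuild the block. VSP1 and VSP2 encode vegetative storage proteins related to acid phosphatases and are widely used as readouts of the MYC branch in leaves.

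The genotypes compared were hdl, with 2 libraries, and WT, with 3, all given as batch 1. The hdl seeds were hdl-1; the series title names the gene as HOMEODOMAIN-LIKE, and its own transcript was not analysed here. Both genotypes carried AtML1pro:RCI2A-mCherry, a red reporter driven by a promoter active in the epidermis. Seedlings of both genotypes were stratified for 2 days, grown on 1/2 MS media in long days and taken at 9 days post germination. Protoplasts were made, about 20000 mCherry-positive cells per sample were sorted, and 10 to 20 ng of their RNA went into each TruSeq library. Protoplasting wounds tissue, and no sample without it is in the comparison. Nothing in the labels ties the replicates to separate plantings. The p-values therefore reflect the spread among these libraries alone, part or all of which may be technical.

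Depth was 18316092 and 19741801 recovered gene reads in hdl, against 15418154 to 22838239 in WT. Values are normalized counts, that is, gene counts divided by 1 size factor per library. They were tested with limma on log2(value + 1), and a gene was called at a Benjamini-Hochberg adjusted p under 0.05 over 20391 tested genes. Of these genes, 12.7% were called, 8.21% higher and 4.5% lower in hdl. With libraries scaled to equal totals the split turned round, to 4.87% higher and 12.5% lower, and the median log2 change of all genes moved to -0.37, against -0.05. The calls rest on few libraries: without hdl replicate 1, limma called 0 genes higher and 0 lower, with 4006 genes at an unadjusted p under 0.05. WT replicate 2 also stood apart, with Pearson correlations of log2 values across genes of 0.914 and 0.915 with the other WT libraries, against 0.973 between those. The hdl libraries correlated at 0.917 with each other, no higher than hdl replicate 2 with WT replicate 1 (0.922). With the WT libraries, hdl replicate 1 correlated at 0.822 to 0.866 and hdl replicate 2 at 0.875 to 0.922.

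Markers of the cell types in a leaf moved with genotype, and their part in the results below was not tested. No marker was at 0 in any library. The calls in each marker list stand beside 8.21% of all tested genes called higher and 4.5% lower. The summed normalized counts of 6 epidermal markers were 59277 and 66485 in hdl, against 21462 to 23958 in WT, with 4 of 6 called higher and 0 lower. LTP1 and CER6 had the largest means of the 6, at 29182 and 15218 in hdl, against 6088 and 4452 in WT. PDF1 had a log2 change of -0.21 and did not pass (limma adjusted p = 0.431). ATML1, whose promoter drives the reporter, had 3562 and 3522 normalized counts in hdl, against 2549, 4183 and 2582 in WT, and did not pass (limma adjusted p = 0.54). For 6 mesophyll markers the sums were 770270 to 804160 in hdl and 404470 to 541730 in WT, with 2 of 6 called higher and 0 lower. For 6 vascular markers they were 24743 to 26973 in hdl and 43834 to 70386 in WT, with 0 of 6 called higher and 3 lower. Those called lower were SEOR1, APL and XCP2. The other 3 had log2 changes above 0 and did not pass, at 0.39 for SUC2, 0.46 for SWEET11 and 0.06 for SWEET12. In bulk samples of sorted cells, fewer cells of a type and less RNA per cell cannot be told apart.

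Of the 10 genes, 4 were called higher in hdl (JAZ6, JAZ9, VSP1 and VSP2) and 0 lower, against 8.21% and 4.5% of all tested genes. Their median log2 change was 0.70, against -0.05 over all tested genes. Both hdl libraries lay above every WT library for 9 of the 10 and below for 1, MYC2; over all tested genes these shares were 26.7% and 26.9%. By edgeR's quasi-likelihood test on recovered reads the same 4 genes were called higher and 0 lower, where 8.1% of all genes were higher and 4.05% lower. DESeq2 called 6 of the 10 higher, adding JAZ1 (adjusted p = 0.0309) and JAZ3 (0.0173), and 0 lower, where 12.8% of all genes were higher and 10.5% lower. With equal library totals the same 4 were higher, against 4.87% of all genes.

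Leaving out 1 library at a time, limma called 0 of the 10 genes higher without hdl replicate 1, where it called 0% of all genes higher. It called 2 (JAZ9 and VSP2) without hdl replicate 2, against 2.61% of all genes, and the same 2 without WT replicate 3, against 1.79%. Without WT replicate 1 it called 3 (JAZ6, JAZ9 and VSP2), against 3.94% of all genes. Without WT replicate 2 it called 7, against 17.8% of all genes. With 1 hdl library left, limma took it to vary like the WT libraries.

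**Figure D1:**
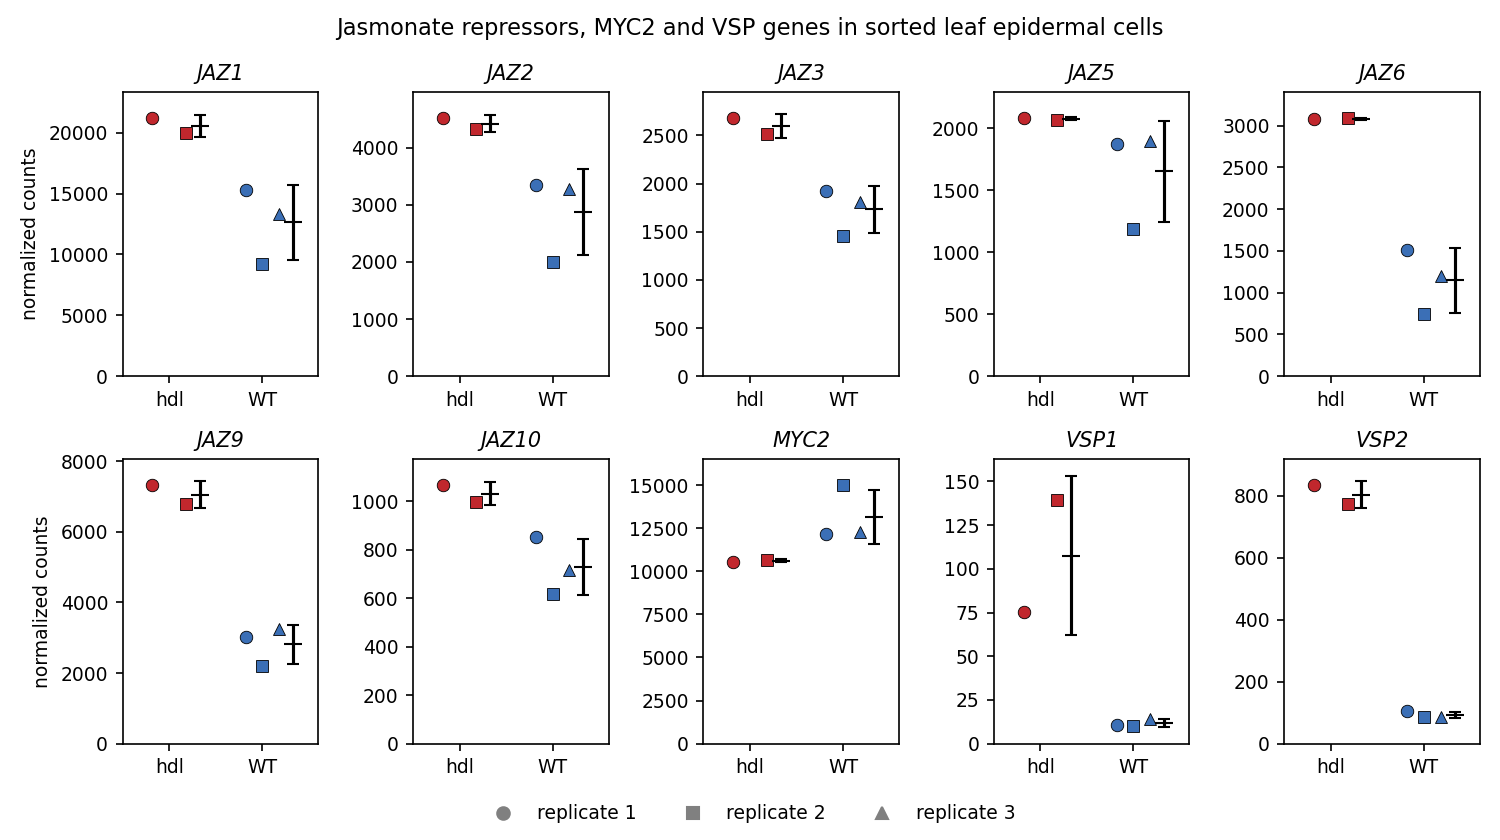
Normalized counts (linear axes from 0) of the 10 genes in each library, hdl in red and WT in blue, with the marker shape giving the replicate number; bars show the mean and SD (n = 2 in hdl, n = 3 in WT). The hdl points lie above all WT points in every panel but MYC2, where they lie below.

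JAZ9 and JAZ6 were the repressor genes that rose. JAZ9 (AT1G70700; chromosome 1, 26654529 to 26657350, plus strand, in TAIR10.1) had 7316 and 6776 normalized counts in the hdl libraries, against 3020, 2191 and 3234 in WT. Even the lower hdl library was above each WT library by a wide margin. The means were 7046 ± 382 (SD, n = 2) in hdl, against 2815 ± 551 (SD, n = 3) in WT, a ratio of 2.5 and a log2 change of 1.34 ± 0.20 (SE; limma adjusted p = 0.0127). JAZ6 (AT1G72450; chromosome 1, 27273968 to 27276562, minus strand) had 3074 and 3093 normalized counts in hdl, against 1514, 739 and 1200 in WT. The hdl libraries were nearly equal, while the WT libraries spread over 1.03 log2 units with WT replicate 2 lowest. The log2 change of JAZ6 was 1.48 ± 0.30 (SE; limma adjusted p = 0.0287), at a ratio of means of 2.68. Of all tested genes, 5.11% had a larger log2 change than JAZ6 and 6.3% a larger one than JAZ9.

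These calls depended on single libraries. JAZ6 did not pass without hdl replicate 1 (adjusted p = 0.145), hdl replicate 2 (0.0907) or WT replicate 3 (0.0949), and JAZ9 did not pass without hdl replicate 1 (0.111). Their log2 changes stayed positive each time.

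JAZ1 (AT1G19180), the most abundant repressor transcript per kilobase of exon, had 21230 and 19959 normalized counts in hdl, against 15318, 9250 and 13318 in WT. The hdl libraries were above all WT libraries, but the WT libraries differed by 0.73 log2 units. Its log2 change of 0.74 ± 0.24 (SE) did not pass (limma adjusted p = 0.0923; 95% interval 0.16 to 1.31). JAZ2 (AT1G74950), its closest relative here with 76.7% identity over 717 aligned coding bases, had 4525 and 4322 normalized counts in hdl, against 3346, 2007 and 3270 in WT. The pattern across libraries was close to that of JAZ1, with a log2 change of 0.66 (limma adjusted p = 0.127; interval 0.06 to 1.25).

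JAZ3 (AT3G17860), the repressor altered in the jai3 mutant, had 2683 and 2511 normalized counts in hdl, against 1928, 1460 and 1805 in WT. Groups did not overlap, yet the log2 change of 0.59 did not pass (limma adjusted p = 0.0627; interval 0.20 to 0.99). JAZ10 (AT5G13220), whose splice variants are known for resisting degradation, had 1066 and 997 normalized counts in hdl, against 851, 619 and 716 in WT. It also stayed above the threshold at a log2 change of 0.51 (limma adjusted p = 0.113; interval 0.08 to 0.95). JAZ5 (AT1G17380) differed least of the 7, with 2083 and 2067 normalized counts in hdl, against 1869, 1185 and 1897 in WT. Apart from WT replicate 2, its WT values lay just under the hdl values, and its log2 change was 0.36 (limma adjusted p = 0.322; interval -0.20 to 0.93). All 7 JAZ log2 changes were positive under each scaling, but with equal library totals those that did not pass were smaller, at 0.04 for JAZ5 (limma adjusted p = 0.916), 0.19 for JAZ10 (0.455), 0.27 for JAZ3 (0.259), 0.34 for JAZ2 (0.349) and 0.41 for JAZ1 (0.232).

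WT replicate 2 held the lowest WT value for 7 of 7 JAZ genes, against 43.6% of all tested genes. Minus the mean of the other WT libraries, its median log2 difference was -0.63 over the JAZ genes and -0.02 over all tested genes. Without it, JAZ1, JAZ2 and JAZ3 were also called higher. The log2 changes of the 7 JAZ genes and their errors were then smaller, for JAZ1 0.53 ± 0.097 (SE), against 0.74 ± 0.24 with all libraries. Its adjusted p was then 0.0106, and the others were called at log2 changes of 0.42 for JAZ2 (0.00926), 0.48 for JAZ3 (0.00985), 1.19 for JAZ6 (0.00139) and 1.17 for JAZ9 (0.000425). JAZ5 at 0.14 (adjusted p = 0.225) and JAZ10 at 0.40 (0.0568) did not pass.

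**Figure D2:**
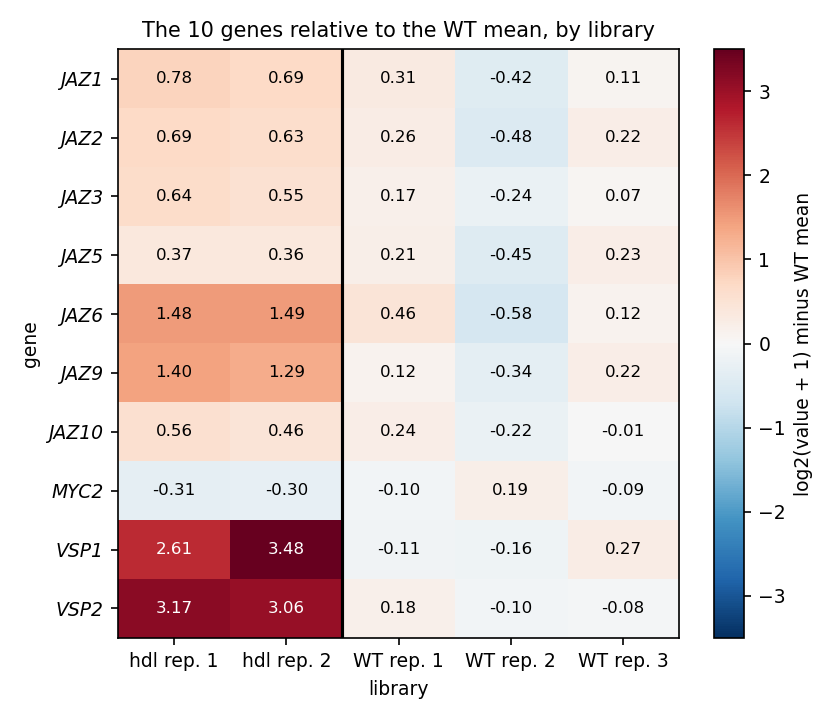
Heat map of log2(value + 1) minus the mean of the 3 WT libraries, with genes in rows and libraries in columns, hdl left of the black line and WT right of it. WT replicate 2 is below 0 for every JAZ gene and above 0 for MYC2, and the VSP genes stand out in both hdl libraries.

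Per kilobase of exon, the summed level of the 7 JAZ genes was 22838 and 21603 normalized counts per kilobase in hdl, against 15186, 9457 and 13897 in WT. JAZ1 came first in both genotypes. Its level was 11416 ± 498 normalized counts per kilobase (SD, n = 2) in hdl, against 7001 ± 1714 (SD, n = 3) in WT. Behind it, JAZ9 was ahead of JAZ2 in both hdl libraries, and JAZ2 was ahead of JAZ9 within each of the 3 WT libraries, although their WT ranges overlapped. The ratio of JAZ9 to JAZ2 per kilobase averaged 1.18 ± 0.026 (SD, n = 2) in hdl, against 0.737 ± 0.070 (SD, n = 3) in WT. JAZ6 came next in hdl at 1449 ± 6.23 normalized counts per kilobase (SD, n = 2), clear of JAZ3 and JAZ5, whose hdl values overlapped. In WT the values of JAZ5, JAZ3 and JAZ6 overlapped, at 738 ± 180, 630 ± 88.2 and 541 ± 183 normalized counts per kilobase (SD, n = 3). JAZ10 was lowest in mean level in both genotypes, at 466 ± 22.0 normalized counts per kilobase (SD, n = 2) in hdl, against 329 ± 52.6 (SD, n = 3) in WT, the WT values overlapping those of JAZ6.

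As shares of the summed JAZ level per kilobase, JAZ9 made up 17.3% and 16.9% in hdl, against 10.7%, 12.5% and 12.6% in WT. JAZ6 made up 6.33% and 6.73% in hdl, against 4.68%, 3.67% and 4.06% in WT. The other 5 genes each had a lower share in both hdl libraries than in any WT library. Their mean shares ran from JAZ1 at 51.4% in hdl and 54.4% in WT to JAZ10 at 2.1% in hdl and 2.6% in WT. Shares add to a fixed total, so larger shares of JAZ9 and JAZ6 force the other 5 down as a group. The normalized counts of each of those 5 genes were higher in both hdl libraries than in every WT library. These shares do not depend on how the libraries are scaled. They were not tested.

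**Figure D3:**
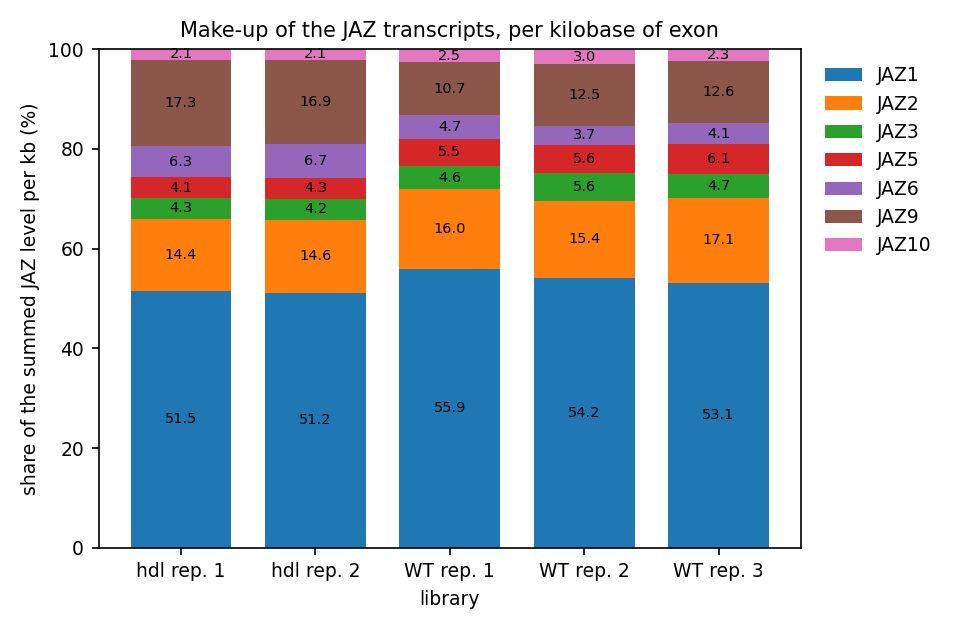
Stacked bars of each JAZ gene's share (%) of the summed level of the 7 JAZ genes per kilobase of exon, 1 bar per library, hdl left and WT right. The JAZ9 and JAZ6 segments are wider in both hdl bars than in the WT bars.

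MYC2 (AT1G32640; chromosome 1, 11798119 to 11801407, minus strand), a basic helix-loop-helix factor that binds G-boxes, ran the other way without passing the test. It had 10559 and 10669 normalized counts in hdl, against 12181, 14984 and 12302 in WT. Both hdl libraries were below every WT library, and WT replicate 2, which was lowest for the JAZ genes, was highest here. The log2 change was -0.30 ± 0.16 (SE; limma adjusted p = 0.233), with a 95% interval of -0.68 to 0.08. Under scaling to equal totals, its log2 change was -0.63 and passed (adjusted p = 0.0398), where 12.5% of all tested genes were called lower. The annotated gene AT1G32630 lies on the opposite strand over 3241 bases of MYC2. Whether counting used strand is not given in the sources used here, so reads of the pair may not be separable; AT1G32630 had 74.2 and 38.3 normalized counts in hdl, against 85.9, 108 and 123 in WT, far below MYC2. Per kilobase of exon, MYC2 was at 3227 ± 23.7 normalized counts per kilobase (SD, n = 2) in hdl, overlapping JAZ2, against 4000 ± 482 (SD, n = 3) in WT, between JAZ1 and JAZ2. JAZ10 shares 71 bases with an opposite-strand gene, and the other 8 genes share none.

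Relative to MYC2, the summed JAZ level per kilobase was 7.11 and 6.66 times that of MYC2 in hdl, against 4.10, 2.08 and 3.72 times in WT. The groups did not overlap on this ratio, which is also free of library scaling and was not tested. That follows from its parts: in both hdl libraries the summed JAZ level was above, and MYC2 below, every WT library.

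The VSP genes had the largest log2 changes of the 10. VSP2 (AT5G24770) had 834 and 772 normalized counts in hdl, against 104, 85.8 and 86.7 in WT. The replicates of each genotype were close together and the groups far apart, at a ratio of means of 8.71 and a log2 change of 3.11 with a 95% interval from 2.59 to 3.64 (limma adjusted p = 0.00343). Its p ranked 28 among the 20391 tested genes, and 0.549% of them had a larger log2 change. VSP1 (AT5G24780) had 75.5 and 140 normalized counts in hdl, against 10.6, 10.2 and 14.2 in WT. These rest on 56 and 113 recovered reads in hdl, against 10, 8 and 17 in WT, the fewest reads of the 10 genes. Its log2 change was 3.05 ± 0.54 (SE; limma adjusted p = 0.0212), at a ratio of means of 9.21, and 0.603% of tested genes had a larger one.

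VSP2 did not pass without hdl replicate 1 (adjusted p = 0.0709), and VSP1 did not pass without hdl replicate 1 (0.107), hdl replicate 2 (0.102), WT replicate 1 (0.0655) or WT replicate 3 (0.0725), although their log2 changes stayed between 2.61 and 3.49. Without WT replicate 2 the log2 changes were 3.07 for VSP2 and 2.97 for VSP1, and both passed.

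Per kilobase of exon, VSP2 was at 530 ± 28.8 normalized counts per kilobase (SD, n = 2) in hdl, against 60.8 ± 6.74 (SD, n = 3) in WT. In hdl that level lay above JAZ10, whereas in WT it was below all 7 JAZ genes. VSP1 was the lowest of the 10, at 80.4 ± 33.8 normalized counts per kilobase (SD, n = 2) in hdl, against 8.73 ± 1.62 (SD, n = 3) in WT. The ratio of VSP2 to VSP1 per kilobase was 9.74 and 4.88 in hdl, against 8.65, 7.39 and 5.40 in WT, so the genotypes overlapped in the balance of the pair.

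VSP2 (chromosome 5, 8500468 to 8502224) and VSP1 (chromosome 5, 8507590 to 8509201) are similar genes on the minus strand, 5365 bases apart, with 1 annotated gene, AT5G24775, between them. Their coding sequences are 89.5% identical over 798 aligned bases. The longest exact match of either transcript elsewhere on the chromosomes is 54 bases, in the other gene of the pair. The 2 transcripts were not compared directly, so a run shared across an exon junction could be longer. The read length is not given in the sources used here, so the split of reads between the pair is uncertain. No JAZ transcript or MYC2 shared an exact stretch of 25 bases or more with another place on the chromosomes.

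The stretches just before the annotated gene starts are shown for the 4 genes that rose and for JAZ3, the one of the 10 with more than 1 G-box there. Each is the 300 bases before the start on the gene's own strand, 5′ to 3′, from the RefSeq copy of TAIR10.1. Capitals mark CACGTG (the G-box), AACGTG or CACGTT, and CACATG or CATGTG, searched on both strands; the 3 kinds do not overlap in these windows.
VSP1, chr5:8509202-8509501, minus strand: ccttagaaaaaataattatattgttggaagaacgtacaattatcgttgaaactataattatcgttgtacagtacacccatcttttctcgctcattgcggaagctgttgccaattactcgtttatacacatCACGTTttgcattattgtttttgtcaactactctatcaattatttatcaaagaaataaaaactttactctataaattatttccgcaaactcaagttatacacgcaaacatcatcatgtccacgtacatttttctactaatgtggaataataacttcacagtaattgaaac
VSP2, chr5:8502225-8502524, minus strand: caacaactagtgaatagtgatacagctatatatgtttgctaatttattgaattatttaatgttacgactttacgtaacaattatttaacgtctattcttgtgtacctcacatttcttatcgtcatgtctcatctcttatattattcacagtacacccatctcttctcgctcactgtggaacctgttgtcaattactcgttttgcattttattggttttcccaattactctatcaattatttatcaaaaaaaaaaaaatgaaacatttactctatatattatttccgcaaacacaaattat
JAZ6, chr1:27276563-27276862, minus strand: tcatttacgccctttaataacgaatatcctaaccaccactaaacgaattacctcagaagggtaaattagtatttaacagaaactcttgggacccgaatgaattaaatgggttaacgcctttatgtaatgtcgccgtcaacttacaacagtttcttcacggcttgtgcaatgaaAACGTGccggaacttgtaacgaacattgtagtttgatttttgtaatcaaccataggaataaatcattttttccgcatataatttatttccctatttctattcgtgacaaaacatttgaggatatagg
JAZ9, chr1:26654229-26654528, plus strand: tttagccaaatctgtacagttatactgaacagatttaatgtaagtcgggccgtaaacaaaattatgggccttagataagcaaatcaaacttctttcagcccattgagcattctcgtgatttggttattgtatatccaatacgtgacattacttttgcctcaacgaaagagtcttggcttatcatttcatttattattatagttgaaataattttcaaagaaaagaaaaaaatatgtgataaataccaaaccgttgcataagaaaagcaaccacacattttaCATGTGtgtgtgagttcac
JAZ3, chr3:6119407-6119706, plus strand: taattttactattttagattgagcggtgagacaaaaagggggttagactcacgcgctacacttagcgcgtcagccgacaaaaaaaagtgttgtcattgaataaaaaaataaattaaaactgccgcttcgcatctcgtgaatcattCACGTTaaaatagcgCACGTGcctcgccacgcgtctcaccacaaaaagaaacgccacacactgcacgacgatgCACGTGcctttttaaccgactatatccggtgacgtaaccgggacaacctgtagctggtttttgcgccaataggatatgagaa

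VSP1 held 1 CACGTT, beginning 170 bases before the start, and VSP2 held none of these motifs in its window. JAZ6 held AACGTG at 127 bases and JAZ9 CATGTG at 19 bases before the start, while JAZ3 held a pair of G-boxes at 140 and 82 bases and a CACGTT at 155. A G-box lay in the windows of 2 of the 10 genes (JAZ2 and JAZ3), against 7.64% of 23523 windows of protein-coding genes in the table. AACGTG or CACGTT lay in 5 of 10, against 8.82%, and CACATG or CATGTG in 2 of 10, against 13.0%. At least 1 of these motifs was in 8 of 10 windows, against 26.3% of all windows; JAZ1 and VSP2 were the ones without. Of the 4 genes that rose 3 held 1, as did 5 of the 6 that did not pass. A match is a description of letters only. The windows of VSP1 and VSP2 aligned over 205 bases at 84.9% identity, with a longest shared run of 23 bases (tactctatcaattatttatcaaa), which begins 142 bases before the VSP1 start and 76 before that of VSP2.

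Elsewhere in the jasmonate pathway, 7 of 54 tested genes from 6 lists were called higher and 0 lower, against 8.21% and 4.5% of all tested genes. Their median log2 change was 0.69, against -0.05 over all tested genes. Without WT replicate 2, 25 of the pathway genes were called higher and 3 lower, where the shares of all tested genes were also larger, at 17.8% higher and 11.4% lower. Without hdl replicate 1 the pathway counts were 0 and 0, as over all genes. They were 1 higher and 0 lower without hdl replicate 2 (2.61% of all genes higher) or WT replicate 3 (1.79%), and 3 higher and 0 lower without WT replicate 1 (3.94%).

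Among 9 other TIFY-family repressor genes, 1 was called higher and 0 lower, against 8.21% and 4.5% of all tested genes. The median log2 change of the 9 was 0.06. The one that rose was JAZ7, a short JAZ with its own repression motif, at 174 and 243 normalized counts in hdl, against 54.1, 28.2 and 50.9 in WT. Its log2 change was 2.24 ± 0.42 (SE; limma adjusted p = 0.0235). JAZ8 had a log2 change of 1.11 and did not pass (limma adjusted p = 0.182), and JAZ4 had 20.5 normalized counts or fewer in every library. Among all 13 tested JAZ genes, these and the 7 above, 3 were called higher (JAZ6, JAZ7 and JAZ9) and 0 lower. With equal library totals the median of the 9 turned to -0.27.

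Against 8.21% of all tested genes, 1 of 11 tested genes for the jasmonate receptor and JAZ partners was called higher, and 0 were lower. This was MYC4, a relative of MYC2, at 393 and 476 normalized counts in hdl, against 224, 168 and 185 in WT (log2 change 1.17 ± 0.23, SE; limma adjusted p = 0.0259). MYC3 at 0.08 (limma adjusted p = 0.848), the receptor gene COI1 at 0.72 (0.111) and the adaptor gene NINJA at -0.14 (0.56) did not pass. The median log2 change of the 11 was 0.08, and -0.24 with equal library totals.

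Of 12 synthesis and conjugation genes 2 were called higher and 0 lower, against 8.21% and 4.5% of all tested genes. The median log2 change of the 12 was 0.94. Both hdl libraries lay above every WT library for 11 of 12, against 26.7% of all tested genes. The lipoxygenase genes LOX4 and LOX3, which act at the first step from linolenic acid, rose by log2 changes of 1.57 ± 0.24 (SE; limma adjusted p = 0.0144) and 1.12 ± 0.25 (0.0374). WT replicate 2 was the lowest WT library for 11 of the 12. LOX2, for example, had 2857 and 2826 normalized counts in hdl, against 1765, 425 and 1750 in WT, and did not pass (limma adjusted p = 0.186). Without that library 10 of the 12 were called higher, against 17.8% of all tested genes in the same comparison. With equal library totals the median of the 12 was 0.61.

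Of 9 tested catabolism genes 1 was called higher and 0 lower, against 8.21% and 4.5% of all tested genes. The median log2 change of the 9 was 0.63, and 7 of 9 changes were above 0. With equal library totals the median was 0.31, and 5 of 9 were above 0. JOX3, a jasmonate oxidase gene, had 861 and 857 normalized counts in hdl, against 437, 386 and 395 in WT (log2 change 1.08 ± 0.15, SE; limma adjusted p = 0.0122). WT replicate 2 was again the lowest WT library for 9 of 9. The changes of this list ran from -1.28 for the sulfotransferase gene ST2A to 1.79 for CYP94B1, and neither passed (limma adjusted p = 0.3 and 0.0573).

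Of 9 other output genes of the MYC branch 2 were called higher and 0 lower, against 8.21% and 4.5% of all tested genes. All 9 log2 changes were above 0, under each scaling too. Their median was 1.56, against 0.73 by edgeR and 1.24 with equal library totals. The limma median of 1.56 was the value of TAT3, a gene with 1 very low WT library and a ratio of means of 1.32. CLH1, a chlorophyllase gene induced by the jasmonate mimic coronatine, had 1790 and 1702 normalized counts in hdl, against 401, 405 and 434 in WT. Its log2 change was 2.08 ± 0.14 (SE; limma adjusted p = 0.00343), with WT replicates close together as for VSP2. ANAC055, a NAC factor gene downstream of MYC2, rose by a log2 change of 0.74 ± 0.16 (SE; limma adjusted p = 0.0354). TAT3, a tyrosine aminotransferase gene, showed how far WT libraries differed, with 445 and 316 normalized counts in hdl, against 421, 10.2 and 434 in WT (limma adjusted p = 0.525).

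In the ERF branch, which jasmonate and ethylene drive together, 4 of 9 genes passed the filter. Of these, 0 were called higher and 0 lower by limma and by edgeR, with 0 at an unadjusted p under 0.05 in limma. Their median log2 change was 0.93, and 0.62 with equal library totals. All 4 changes were above 0 under each scaling. Both hdl libraries lay above every WT library for 2 of the 4, against 26.7% of all tested genes. Without WT replicate 2, limma called 1 of these 4 higher, where 17.8% of all tested genes were called higher. PR4 had 179 and 195 normalized counts in hdl, against 97.6, 223 and 76.7 in WT, and ERF1 had 55.3 and 56.8 in hdl, against 27.6, 51.2 and 22.5 in WT. Neither passed (limma adjusted p = 0.381 and 0.322). WT replicate 2 was the lowest WT library for 0 of the 4.

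**Figure D4:**
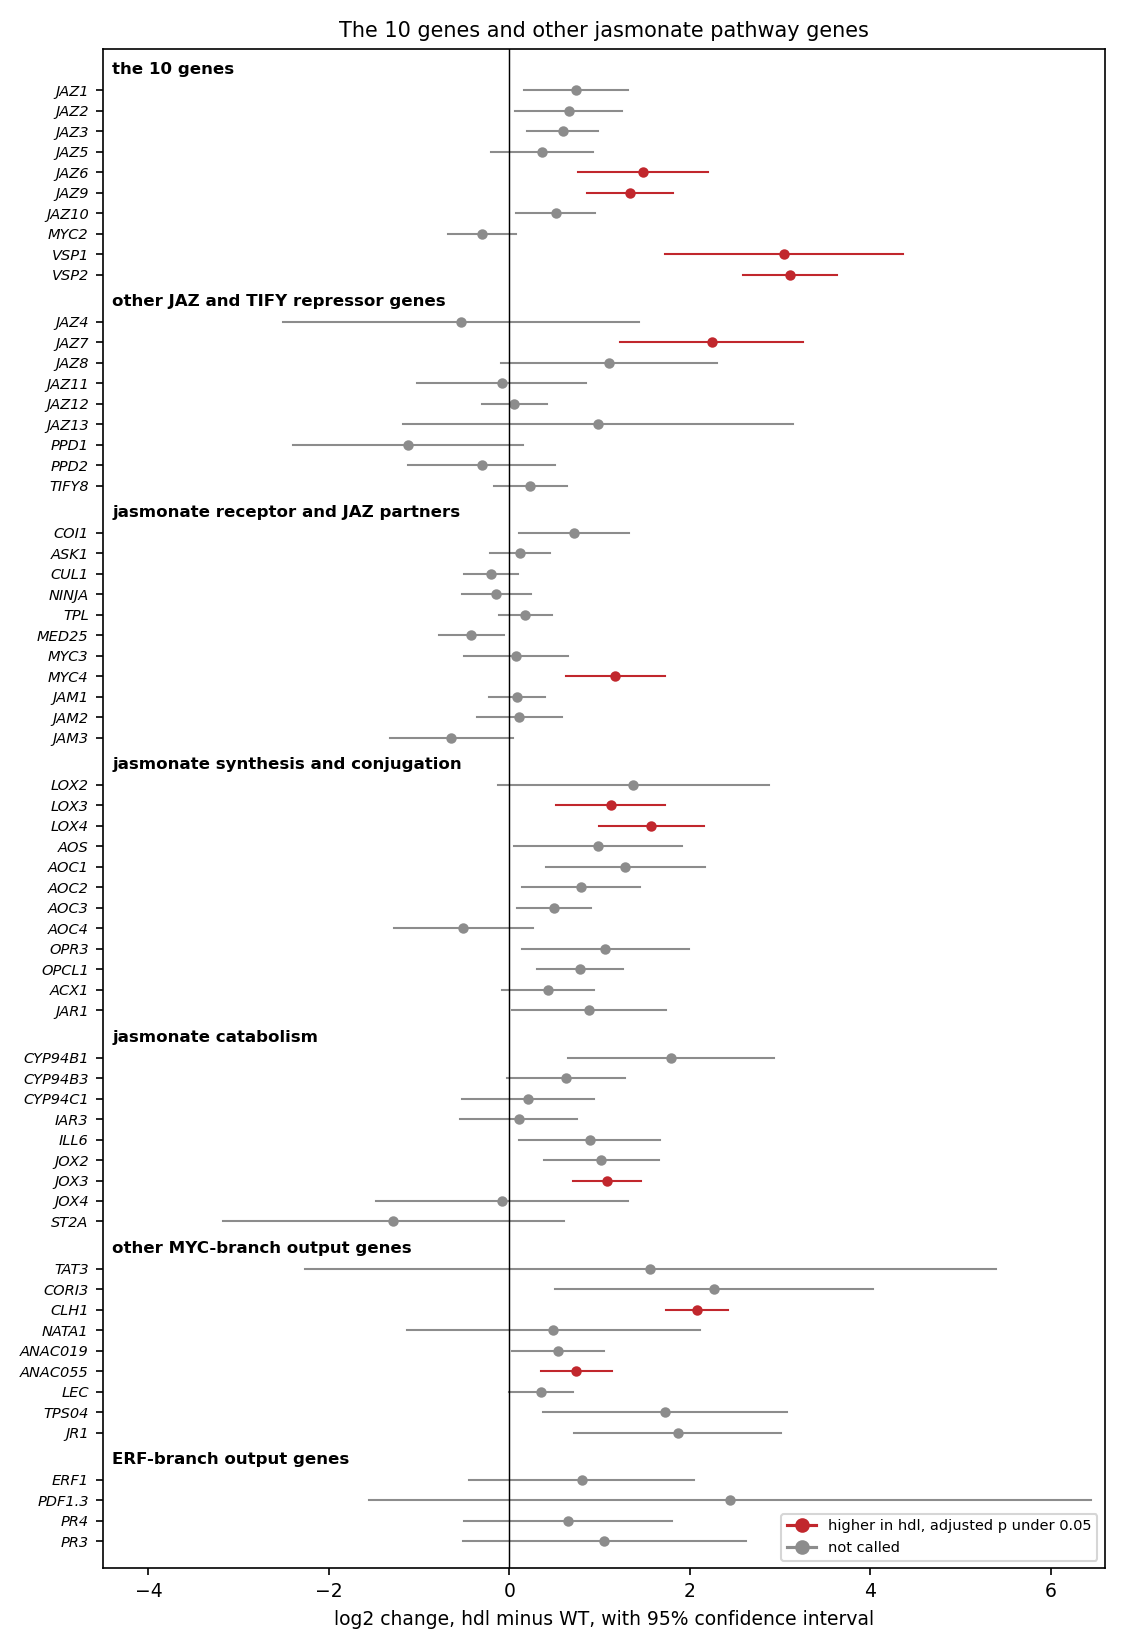
Log2 change (hdl minus WT) with its 95% confidence interval from limma for the 10 genes and the 54 tested genes of 6 other jasmonate lists, red where called higher in hdl and grey where not called. Intervals are narrow for VSP2 and CLH1 and wide for genes with few counts or a deviating WT library, such as TAT3.

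The genes whose pattern over the 5 libraries was most like that of VSP2 were UGT78D1, AT3G44970, AT3G26450, LACS3 and AT1G79520, among 16916 genes with a mean of at least 50 normalized counts. Their root mean square difference from VSP2 in centred log2 values was 0.079 to 0.125, and their log2 changes were 2.94 to 3.07. For MYC2 the nearest were UGT89B1, ELF6, AT1G60900, AT5G65920 and AT4G21110, at differences of 0.0093 to 0.029 and log2 changes of -0.34 to -0.26, with 0 of the 5 called. Both sets were picked on these same 5 libraries, so log2 changes near those of VSP2 and MYC2 follow from the selection.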

How the data were processed

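The table of 24200 genes holds a signal, gene counts that the authors divided by a DESeq2 size factor for each library before they deposited it, per the file name and the values. Per the submitters' processing notes, reads were handled with Bowtie2 2.5.0 among other programs (Trimmomatic 0.33, FastQC 0.11.9, DESeq2, deepTools, SAMtools 1.16.1), with TAIR10 as the build. What each did, and which program counted reads, is not given in the sources used here. A second deposited table, of other features, was not used here.

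Within each library 100% of values were whole multiples of 1 step (tolerance 0.01), so whole reads were recovered. The main test was limma 3.58.1 (R 4.3.3) on log2(value + 1) with an intensity trend, all 5 libraries and no covariate, on genes that reached 10 normalized counts in 2 or more libraries. Fold changes on this scale understate the change of low genes. edgeR 4.0.16 (1652 genes higher, 825 lower) and DESeq2 1.42.0 were run on the recovered reads as alternatives; the procedure was tested on simulated data. Names, coordinates, exon lengths and sequences come from NCBI's TAIR10.1 annotation, which holds 24108 of the 24200 gene identifiers.

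The 10 genes and all lists were chosen with earlier results of these data known. All 10 are named. From each of 6 pathway lists (61 genes, 60 in the table, 54 tested) the rule names up to 4 called genes, or its 2 genes of highest mean where it has none. It also names the 5 genes nearest in pattern to VSP2 and MYC2. JAZ4, JAZ8, MYC3, COI1, NINJA, LOX2, ST2A, CYP94B1 and TAT3 lie outside the rule and were chosen after their values were seen.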

Additional observations from a re-analysis of the deposited data

How the results depend on the processing

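The signs of the log2 changes of the 10 genes held in every alternative in which each was tested, and JAZ6, JAZ9, VSP1 and VSP2 were also called by edgeR and DESeq2, with equal library totals, with TMM scaling, with both other pseudocounts (0.5 and 8), with both other filters and without genes that overlap an opposite-strand gene. Under both other filters and without overlapping genes, the log2 changes of JAZ6, JAZ9, VSP1 and VSP2 were those of the main fit. Only their variance estimates and p adjustment could move there. DESeq2 added JAZ1 and JAZ3, as did a threshold of 0.1. Leaving out 1 library at a time gave 0 to 7 of the 10 genes higher and 0 lower, 0 to 25 pathway genes higher and 0 to 3 lower, and 0 to 3574 of all tested genes higher and 0 to 2295 lower.

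With libraries scaled to equal totals, 1 of the 10 genes (MYC2) and 2 pathway genes were called lower, and 993 of all genes were higher and 2554 lower. DESeq2 called 2619 genes higher, 2147 lower and 15 pathway genes higher. At a threshold of 0.1 these counts were 2623, 2035 and 14, and with a pseudocount of 8 they were 1828, 1058 and 11. With the replicate number as a block, limma called 0 of the 10 genes higher, 0 pathway genes higher, 0 genes higher and 0 lower, with 4529 genes at an unadjusted p under 0.05. The genotypes share only 2 numbers, and the deviations of same-numbered libraries correlated at 0.0048 and -0.012 across genes, so the samples share a number and no shown pairing. With 2 hdl libraries, their deviations from the hdl mean are exact opposites, so these values are not separate checks. Depth limits VSP1, which had 17 recovered reads or fewer in each WT library; read counts cover counting error only.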
